A study of Homo sapiens with 9 samples.

Results

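Transcripts of the core autophagy machinery and of the receptors that bring cargo to it were examined in HepG2 cells, an established human liver cancer line, with and without CRISPR knockout of KEAP1. The genes were listed by symbol, with earlier results of these data known, as 41 genes in 4 roles: initiation, conjugation, fusion and cargo receptors. Of these, 39 had a row among the 11746 numbered features of the count table, ULK2 and MAP1LC3A were not analysed here, and 38 passed the filter on low counts. GABARAP did not pass it, with 2 to 10 reads in each library. All 9 libraries came from HepG2 cells transduced with lentiCRISPRv2, which carries Cas9 and 1 guide RNA, and harvested 48 h after seeding without siRNA. In sgCtrl (3 libraries) the guide sgAAVS168 targeted AAVS1, and in sgKEAP1-1 and sgKEAP1-2 (3 libraries each) separate guides targeted KEAP1. The control cells therefore carry Cas9, a cut site and puromycin selection as well, and whether each line was a clone or a mixed population was not stated in the sources used here.

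Macroautophagy encloses cytoplasm in a double membrane, the autophagosome, which then fuses with a lysosome. The ULK1 kinase complex and a class III phosphatidylinositol 3-kinase start the membrane, ATG9 vesicles, ATG2 lipid transfer proteins and WIPI proteins enlarge it, and ubiquitin-like conjugation attaches ATG8 proteins (the LC3 and GABARAP families) to its lipid. Cargo receptors bind both cargo and ATG8 proteins. KEAP1 is the adaptor that marks the transcription factor NRF2 for degradation, and NRF2 acts through antioxidant response elements. In liver cells autophagy removes damaged mitochondria, protein aggregates and stored lipid.

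Reads were generated from the 3' end of each transcript, about 1 read per transcript, so that levels are given as CPM, the counts of a gene relative to all counts of its library, scaled by TMM size factors and were not divided by gene length. Each library held 3051755 to 4793757 counted reads. The knockout was first checked on KEAP1 itself. KEAP1 was at 63.3, 89.2 and 85.3 CPM in the sgCtrl libraries, at 64.1, 62.5 and 53.4 CPM with sgKEAP1-1, and at 81.9, 85.6 and 73.9 CPM with sgKEAP1-2. On the log2 scale KEAP1 differed from sgCtrl by -0.40 ± 0.15 under the first guide (SE, adjusted p = 0.211, edgeR's quasi-likelihood test) and by 0.02 ± 0.15 under the second (adjusted p = 0.952), so neither passed the threshold of 0.05. A 3' read does not report a small lesion at a guide's cut site, so these levels do not check the labels. NQO1, a textbook NRF2 target named here outside the selection rule, was 505 to 536 CPM in sgCtrl and 1265 to 1900 CPM in the 6 knockout libraries. Hepatocyte genes marked the cell line, with ALB at 3493 to 16328 CPM and APOB at 4402 to 5579 CPM. Of 9 hepatocyte markers, 5 were lower and 1 was higher with sgKEAP1-1, and 6 were lower and 1 was higher with sgKEAP1-2. Of 4 markers of other cell types, PTPRC, PECAM1 and DCN were not analysed here and COL1A1 was at 0.263 to 5.10 CPM. The part of the hepatocyte change in the autophagy results was not tested, and in bulk RNA fewer cells of a type and less RNA per cell cannot be told apart.

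The libraries that share the number 2 were looked at separately after the values had been seen. By chi-square per degree of freedom against sampling noise, library 2 was the most distant in sgCtrl and sgKEAP1-1. In sgCtrl it lay at 9.77 and 9.96 from libraries 1 and 3, which lay at 4.63 from each other. In sgKEAP1-1 these values were 16.2, 17.9 and 4.71. With sgKEAP1-2 library 3 was the most distant, at 15.0 and 24.1, beside 6.62 between libraries 1 and 2. All 10 of 10 hypoxia-inducible genes on a list were highest in library 2 of every group, against 12.2% of all 11064 features tested. The summed level of the autophagy genes was also highest in library 2 of each group, at 2656, 3134 and 3115 CPM, over a range of 2205 to 3134 CPM in all 9 libraries. The deposited library names share a prefix within each number, whose meaning was not stated. Calls, and the values of the genes that results turn on, are therefore also given without those 3 libraries.

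Because KEAP1 loss acts on NRF2, the promoters of the genes described most closely were set out first. The table of RefSeq promoters (build GRCh38.p14) held 35 of the 41 genes. In each, the 250 bases before the transcription start were searched on both strands for the antioxidant response element core TGACNNNGC, for the CLEAR or E-box core CACGTG, bound by TFEB and related factors, and for the hypoxia response element core ACGTG, which lies within every CACGTG. TAX1BP1 and GABARAPL1 are shown because they were the 2 genes that changed, MAP1LC3B because it is an ATG8 gene that holds the first core, and BNIP3 because it is a mitophagy receptor that holds the second. Capitals mark the matched letters, and the sequences run 5' to 3' on the gene's strand.
TAX1BP1, chr7:27739912-27740161, plus strand: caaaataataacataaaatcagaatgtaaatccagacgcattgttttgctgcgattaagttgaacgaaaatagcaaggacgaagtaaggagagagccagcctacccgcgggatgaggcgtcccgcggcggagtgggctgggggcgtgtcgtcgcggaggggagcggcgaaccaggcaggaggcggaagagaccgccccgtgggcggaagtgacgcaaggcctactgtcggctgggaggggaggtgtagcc
GABARAPL1, chr12:10212627-10212876, plus strand: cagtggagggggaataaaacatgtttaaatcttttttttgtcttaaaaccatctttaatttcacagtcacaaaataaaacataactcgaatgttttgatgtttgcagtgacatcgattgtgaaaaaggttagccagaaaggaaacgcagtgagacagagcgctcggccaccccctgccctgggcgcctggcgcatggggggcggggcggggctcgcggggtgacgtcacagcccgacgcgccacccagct
MAP1LC3B, chr16:87392086-87392335, plus strand: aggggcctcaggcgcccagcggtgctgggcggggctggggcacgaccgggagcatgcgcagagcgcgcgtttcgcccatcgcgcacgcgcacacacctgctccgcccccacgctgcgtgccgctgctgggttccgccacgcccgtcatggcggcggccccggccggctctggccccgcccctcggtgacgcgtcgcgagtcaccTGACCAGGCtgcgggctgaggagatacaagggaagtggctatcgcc
BNIP3, chr10:131981924-131982173, minus strand: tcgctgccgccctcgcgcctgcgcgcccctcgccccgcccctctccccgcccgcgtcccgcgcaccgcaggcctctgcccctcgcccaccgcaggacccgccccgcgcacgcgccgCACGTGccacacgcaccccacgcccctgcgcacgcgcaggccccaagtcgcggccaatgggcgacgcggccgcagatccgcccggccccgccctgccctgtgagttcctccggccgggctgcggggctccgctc

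The antioxidant response element core was found in 3 of the 35 promoters (ATG101, MAP1LC3B and CALCOCO2), against 11.0% of 27303 promoters of the same length. CACGTG was in 3 of 35 (ATG14, ATG3 and BNIP3), against 6.28%, and ACGTG was in 13 of 35, against 18.3%. The match in MAP1LC3B began 46 bases before the start, and that in BNIP3 134 bases before it. None of these letters was found in the windows of TAX1BP1 and GABARAPL1, which says nothing of more distant sequence.

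Few autophagy genes changed with KEAP1 knockout, and those that did rose. With sgKEAP1-1, 1 of 38 genes was higher (TAX1BP1) and 0 were lower, against 2.80% higher and 1.40% lower among all features. With sgKEAP1-2, 2 of 38 were higher (TAX1BP1 and GABARAPL1) and 0 were lower, against 5.96% and 4.85%. In the fit of all 6 knockout libraries against sgCtrl, the same 2 were higher and 0 were lower, against 5.51% and 4.13%. The counts of called genes were thus close to the background for increases. At an unadjusted p under 0.05 with edgeR, 4, 4 and 6 of the 38 genes were higher in the 3 comparisons, against 8.37%, 12.3% and 11.9% of all features, and 0 were lower, against 6.63%, 11.0% and 10.5%. With DESeq2's Wald test 2, 2 and 3 genes were higher, against 3.36%, 6.38% and 6.44%. With the library number as a block, edgeR called 2, 4 and 4 genes higher, against 5.11%, 9.11% and 7.66% of features. It called 0 lower, against 3.72%, 8.57% and 6.89%. The block added GABARAPL1 with sgKEAP1-1, ULK1 and WIPI1 with sgKEAP1-2, and AMBRA1 and WIPI1 over both guides. Without the libraries numbered 2, edgeR called 1, 2 and 2 genes higher and 0 lower, against 2.48%, 4.93% and 4.56% of features higher. No share of all features is given here for lower levels or for an unadjusted p under 0.05 in these fits. At that unadjusted threshold 6, 5 and 7 genes passed in either direction, and some were lower. The lower ones were RB1CC1 with sgKEAP1-1 (log2 fold change -0.44), UVRAG with sgKEAP1-2 (-0.57), and RB1CC1 (-0.38) and OPTN (-0.37) over both guides. The median log2 fold change of the 38 genes was 0.07, 0.12 and 0.09 in the 3 comparisons, beside -0.00062, -0.014 and -0.0045 over all features. Without the libraries numbered 2 the median of the 38 genes fell to 0.013, 0.034 and 0.025. Both guides were compared with the same sgCtrl libraries, so their values are set side by side and are not independent. The fit over both guides took their libraries as 1 group. Its p-values and intervals therefore count libraries, and not guides or cell lines, as replicates.

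TAX1BP1 encodes a ubiquitin-binding receptor that links cargo to ATG8 proteins, and it had the highest level of the 39 genes in the table, with a mean of 393 CPM. TAX1BP1 was at 241.4, 284.1 and 241.8 CPM in sgCtrl, at 404.3, 478.6 and 341.1 CPM with sgKEAP1-1, and at 506.1, 611.2 and 427.9 CPM with sgKEAP1-2. All 6 knockout libraries lay above all 3 control libraries. The increase was 0.67 ± 0.16 on the log2 scale with sgKEAP1-1 (adjusted p = 0.0219, edgeR's quasi-likelihood test), 1.01 ± 0.16 with sgKEAP1-2 (adjusted p = 0.000673) and 0.85 ± 0.16 over both guides (adjusted p = 0.00217). With sgKEAP1-1 the call was lost when sgCtrl 1, sgCtrl 3, sgKEAP1-1 1 or sgKEAP1-1 2 was left out, with a log2 fold change of 0.63, 0.64, 0.68 and 0.54 and an adjusted p of 0.123, 0.116, 0.0777 and 0.0905 in that order. With sgKEAP1-2 and over both guides the call held in 9 of 9 such fits. Without the libraries numbered 2 the log2 fold changes were 0.62, 0.96 and 0.80 (adjusted p = 0.0288, 0.000533 and 0.00288 with edgeR).

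The remaining 5 receptors had no call. They were NBR1, which binds ubiquitinated cargo and takes part in peroxisome removal, OPTN and CALCOCO2 (NDP52), which act in the removal of mitochondria and bacteria, and BNIP3 and BNIP3L (NIX), which sit in the outer mitochondrial membrane. Their log2 fold changes over both guides ran from -0.28 (OPTN) to 0.23 (BNIP3L). CALCOCO2 was the steadiest of these 5, at 63.0 to 73.5 CPM in sgCtrl and 66.0 to 79.1 CPM in the knockouts. Its 95% interval over both guides was -0.15 to 0.33, and that of NBR1 was -0.30 to 0.39. The interval of OPTN, -0.76 to 0.21, was wider, and its value of -0.28 ± 0.22 became -0.37 ± 0.17 (adjusted p = 0.239, edgeR) without the libraries numbered 2. SQSTM1 (p62), the receptor that also binds KEAP1 and a textbook NRF2 target, was not among the 41 genes and was named after its values were seen. SQSTM1 was at 169 to 208 CPM in sgCtrl, 342 to 540 CPM with sgKEAP1-1 and 534 to 699 CPM with sgKEAP1-2, with log2 fold changes of 1.20 ± 0.17 (adjusted p = 0.000638, edgeR) and 1.67 ± 0.17 (adjusted p = 1.9e-05). Its values were 1.08 (adjusted p = 0.000287) and 1.64 (adjusted p = 2.55e-06) without the libraries numbered 2. The 3' end of SQSTM1 overlaps MRNIP on the opposite strand, and whether counting used strand was not stated.

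**Figure D1:**
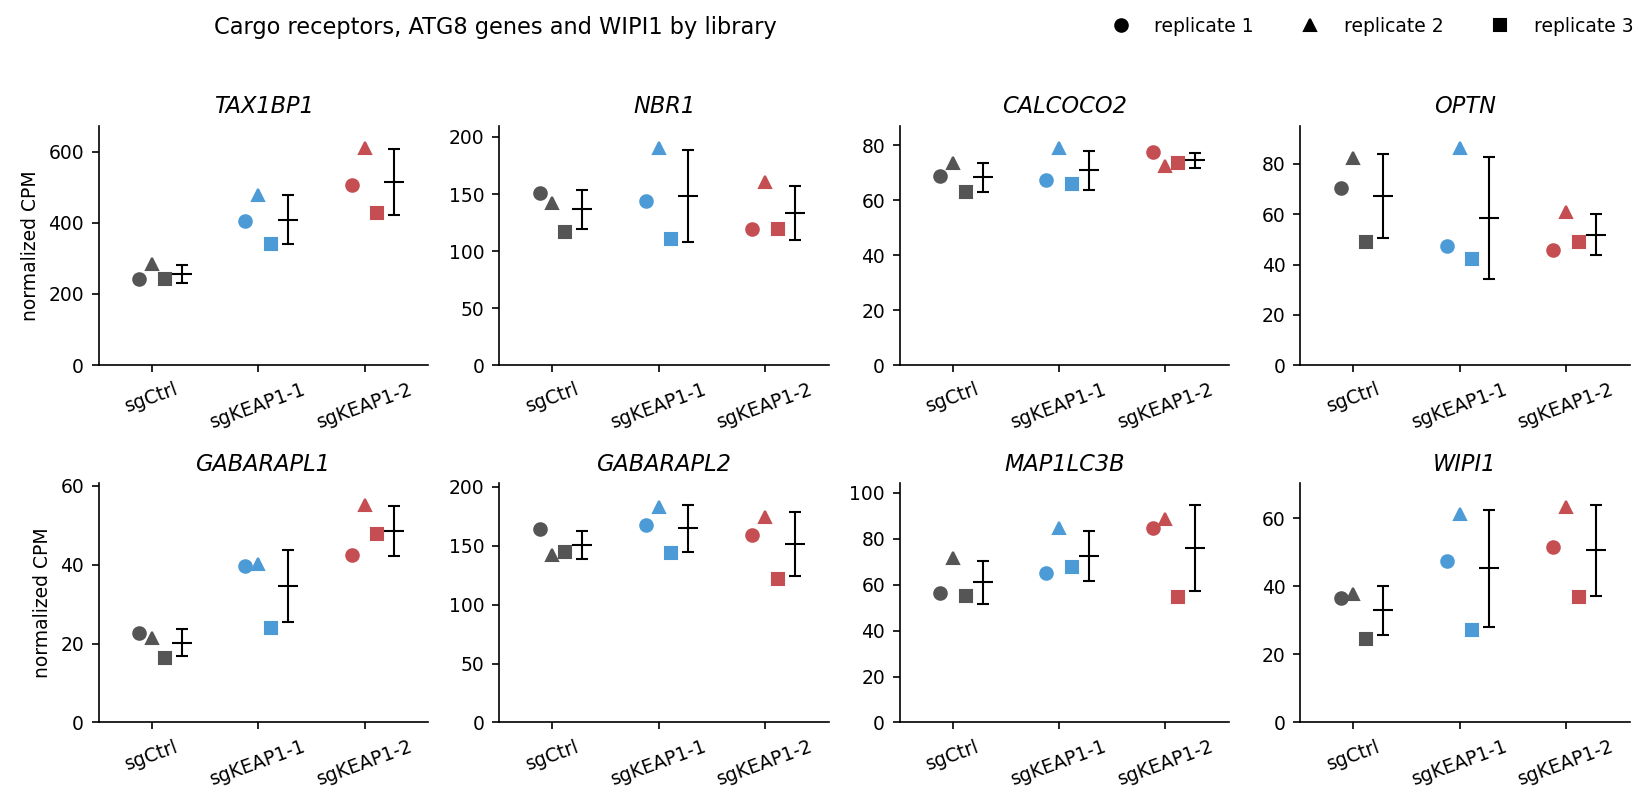
Normalized CPM (vertical axes, each from 0) of 4 cargo receptors, 3 ATG8 genes and WIPI1 in the 3 libraries of each group, with marker shape for the replicate number and the mean ± SD beside the points. The 6 knockout libraries lie above the 3 sgCtrl libraries for TAX1BP1 and GABARAPL1, and the groups overlap for the other 6 genes.

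GABARAPL1, an ATG8 protein of the GABARAP branch, was the only 1 of 3 ATG8 genes tested to pass. It was at 22.8, 21.4 and 16.5 CPM in sgCtrl, at 39.7, 40.1 and 23.9 CPM with sgKEAP1-1, and at 42.5, 55.1 and 47.7 CPM with sgKEAP1-2. The groups did not overlap with the control, but sgKEAP1-1 3 lay just above the highest sgCtrl library. GABARAPL1 rose by 1.26 ± 0.22 on the log2 scale with sgKEAP1-2 (adjusted p = 0.00163, edgeR) and by 1.04 ± 0.22 over both guides (adjusted p = 0.00683), while the value with sgKEAP1-1 was 0.78 ± 0.22 (adjusted p = 0.0657). With sgKEAP1-1 GABARAPL1 passed with DESeq2's Wald test, with the library number as a block, and when sgKEAP1-1 3 or sgKEAP1-2 3 was left out. The call over both guides was lost without sgCtrl 3 (log2 fold change 0.91, adjusted p = 0.0584), and the call with sgKEAP1-2 held in 9 of 9 such fits. Without the libraries numbered 2 the values were 0.69 with sgKEAP1-1 (adjusted p = 0.218, edgeR), 1.21 with sgKEAP1-2 (adjusted p = 0.0072) and 0.97 over both guides (adjusted p = 0.0319).

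The ATG8 genes differed widely in level. GABARAPL2 (GATE-16), the third most abundant gene of the 39, was at 164.3, 142.2 and 145.0 CPM in sgCtrl, at 167.6, 183.0 and 143.6 CPM with sgKEAP1-1, and at 159.2, 174.1 and 121.6 CPM with sgKEAP1-2. Its groups overlapped, and its log2 fold change over both guides was 0.07 with a 95% interval of -0.20 to 0.35. MAP1LC3B, the LC3 protein most used as an autophagosome marker, was at 54.9 to 71.8 CPM in sgCtrl and 54.5 to 88.8 CPM in the knockouts. Its log2 fold change was 0.28 with an interval of -0.06 to 0.63, so a rise of 1.5-fold remained within reach. GABARAP was at 0.681 to 2.42 CPM, and its annotated 3' end shares its strand with another gene model, so its level is uncertain.

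Within the reads of these 4 ATG8 genes, the share of GABARAPL1 was 8.65 ± 0.97% (SD, n = 3) in sgCtrl, 12.5 ± 2.2% with sgKEAP1-1 and 17.7 ± 3.2% with sgKEAP1-2. The ranges were 7.54 to 9.33%, 10.1 to 14.5% and 14.8 to 21.1%, with no overlap between any 2 groups. The share of GABARAPL2 was 64.6 ± 3.8%, 60.4 ± 1.0% and 54.6 ± 0.83% in the same order, and that of MAP1LC3B was 26.2 ± 3.8%, 26.6 ± 2.6% and 27.1 ± 2.8%. These shares are a description, with no test, and each share moves with the others. MAP1LC3A is not among these genes and the level of GABARAP is uncertain, so they are not shares of the whole family.

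**Figure D2:**
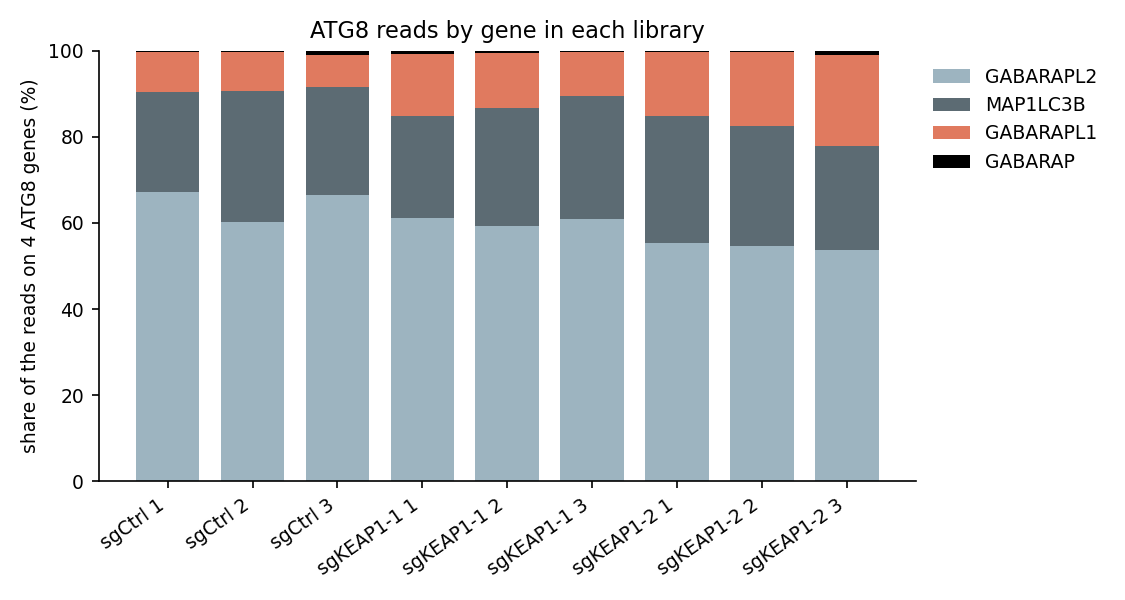
Share of the reads on 4 ATG8 genes (vertical axis, %) taken by each gene in each of the 9 libraries. The segment of GABARAPL1 spans 7.54 to 9.33% in sgCtrl and 14.8 to 21.1% with sgKEAP1-2.

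The enzymes that conjugate ATG8 proteins showed no call among 10 genes. ATG7 (the E1-like enzyme), ATG3 and ATG10 (E2-like enzymes), the ATG12, ATG5 and ATG16L1 complex, and the ATG4 proteases gave log2 fold changes over both guides from -0.26 (ATG10) to 0.21 (ATG16L1 and ATG4D). ATG12 had the smallest spread among replicates of the 38 genes, with a within-group SD of 0.058 on the log2 scale, and stayed between 36.6 and 43.2 CPM in all 9 libraries. ATG4B made up 83.6 ± 2.4% (SD, n = 3) of the reads of the 4 proteases in sgCtrl, 81.4 ± 0.56% with sgKEAP1-1 and 78.6 ± 4.7% with sgKEAP1-2. ATG4B was 1 of 2 genes for which all 6 knockout libraries lay below all 3 controls, at 130.3 to 133.8 CPM in sgCtrl and 93.6 to 128.6 CPM in the knockouts (log2 fold change -0.23 ± 0.12, adjusted p = 0.286, edgeR). The other was WIPI2, at 126.9 to 145.2 CPM in sgCtrl and 112.5 to 126.5 CPM in the knockouts (log2 fold change -0.19 ± 0.10, adjusted p = 0.292). Over all features 6.74% had knockout libraries below the controls in this way. The low members were ATG4A (3.71 to 6.34 CPM), ATG7 (5.85 to 11.0 CPM) and ATG10 (7.80 to 12.5 CPM). The 3' ends of ATG4D, ATG7 and ATG10 overlap a gene on the opposite strand.

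Among the 15 initiation genes tested, 0 passed in any comparison with sgCtrl in edgeR's fit of all 9 libraries with TMM scaling and no block. ULK1, WIPI1 and AMBRA1 passed in some of the alternative fits, so their calls depend on the processing. ULK1 passed with sgKEAP1-2 when sgKEAP1-1 2 (adjusted p = 0.0371, edgeR) or sgKEAP1-2 3 (adjusted p = 0.0454) was left out. WIPI1 passed over both guides when sgKEAP1-1 3 was left out (adjusted p = 0.0491), and AMBRA1 when sgKEAP1-2 1 was left out (adjusted p = 0.0383). Each of the 3 also passed in at least 1 comparison with the library number as a block. Over both guides 4 of the 15 had an unadjusted p under 0.05, all with higher levels in the knockouts, beside the 11.9% of all features higher at that threshold. They were ULK1, ATG13, AMBRA1 and WIPI1. Without the libraries numbered 2, AMBRA1 was the only 1 of these to stay under that threshold over both guides (log2 fold change 0.59, edgeR). RB1CC1 then also fell under it, with a lower level in the knockouts (-0.38). The set that passed and its shared direction thus depend on those libraries. ULK1, the kinase that starts autophagy, was at 43.5, 44.6 and 33.5 CPM in sgCtrl, at 43.4, 55.6 and 38.9 CPM with sgKEAP1-1, and at 63.1, 59.3 and 54.5 CPM with sgKEAP1-2. The sgKEAP1-2 libraries lay above the control and the sgKEAP1-1 libraries overlapped with it. How many of all features lie above the control with a single guide was not counted. The log2 fold changes of ULK1 were 0.19 ± 0.17 (adjusted p = 0.719, edgeR), 0.54 ± 0.17 (adjusted p = 0.0595) and 0.37 ± 0.17 over both (adjusted p = 0.197). The value of ULK1 over both guides without the libraries numbered 2 was 0.38 ± 0.21 (adjusted p = 0.353).

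ATG13, the adaptor that binds ULK1, was at 72.3, 65.3 and 71.4 CPM in sgCtrl, at 96.7, 80.8 and 90.2 CPM with sgKEAP1-1, and at 82.5, 86.6 and 82.4 CPM with sgKEAP1-2. All 6 knockout libraries lay above all 3 controls, which held for 3 of the 38 genes (ATG13, GABARAPL1 and TAX1BP1) against 8.04% of all features. The log2 fold change of ATG13 over both guides was 0.31 ± 0.11 (adjusted p = 0.0935, edgeR) with a 95% interval of 0.08 to 0.54, within 1.5-fold, and was 0.29 ± 0.14 (adjusted p = 0.272) without the libraries numbered 2. RB1CC1 (FIP200), the scaffold of the same complex, was at 107.1 to 136.1 CPM in sgCtrl and 72.6 to 155.3 CPM in the knockouts, and ATG101 at 34.0 to 56.6 and 41.6 to 57.2 CPM. The log2 fold change of RB1CC1 over both guides was -0.15 ± 0.23 (adjusted p = 0.783, edgeR). It became -0.38 ± 0.15 (adjusted p = 0.149) without the libraries numbered 2.

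AMBRA1, a scaffold that binds Beclin 1, was at 17.8, 15.3 and 11.7 CPM in sgCtrl, at 24.6, 25.5 and 19.98 CPM with sgKEAP1-1, and at 16.9, 24.6 and 26.7 CPM with sgKEAP1-2. The sgKEAP1-1 libraries lay above the control, an order not counted over all features, and sgKEAP1-2 1 lay within its range. The log2 fold change of AMBRA1 over both guides was 0.63 ± 0.20 (adjusted p = 0.0568, edgeR), and 0.59 ± 0.25 (adjusted p = 0.204) without the libraries numbered 2. AMBRA1 passed over both guides with DESeq2's Wald test (adjusted p = 0.0371) and with edgeR scaled by library size only (adjusted p = 0.0492). The other genes of the class III phosphatidylinositol 3-kinase gave -0.24 (UVRAG) to 0.36 (PIK3R4), with BECN1 (Beclin 1) at 0.10, PIK3C3 (VPS34, the catalytic subunit) at 0.16 and ATG14 at 0.18. PIK3R4 was measured at only 4.77 to 11.3 CPM.

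WIPI1, a protein that binds phosphatidylinositol 3-phosphate on the growing membrane, was at 36.6, 37.8 and 24.5 CPM in sgCtrl, at 47.5, 61.4 and 27.1 CPM with sgKEAP1-1, and at 51.7, 63.4 and 36.8 CPM with sgKEAP1-2. The groups overlapped, and in each of them library 2 was highest and library 3 lowest. Among libraries of the same number, both knockout libraries of WIPI1 lay above the control, and how many of all features did so was not counted. The log2 fold change of WIPI1 over both guides was 0.55 ± 0.25 (adjusted p = 0.216, edgeR) and 0.41 ± 0.25 without the libraries numbered 2 (adjusted p = 0.422), and its 3' end overlaps ARSG on the opposite strand. ATG9A, the membrane protein of the ATG9 vesicles, gave 0.07, and its 3' end shares its strand with another gene model. The lipid transfer proteins ATG2A and ATG2B gave 0.03 and -0.39, with ATG2B at 5.23 to 10.2 CPM.

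The 4 fusion genes gave the narrowest range of the roles, but this role also holds the fewest genes and a range widens with their number. STX17 and VAMP8 are SNARE proteins of the autophagosome and lysosome, VPS39 belongs to the HOPS tether and RAB7A is the GTPase of late endosomes. Their log2 fold changes over both guides were -0.22, 0.00, -0.05 and 0.13, and the adjusted p ranged from 0.414 to 0.996 with edgeR. All 4 had 95% intervals over both guides within 1.5-fold in either direction. With single guides the interval reached beyond 1.5-fold for VPS39 with either guide and for STX17 with sgKEAP1-2.

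**Figure D3:**
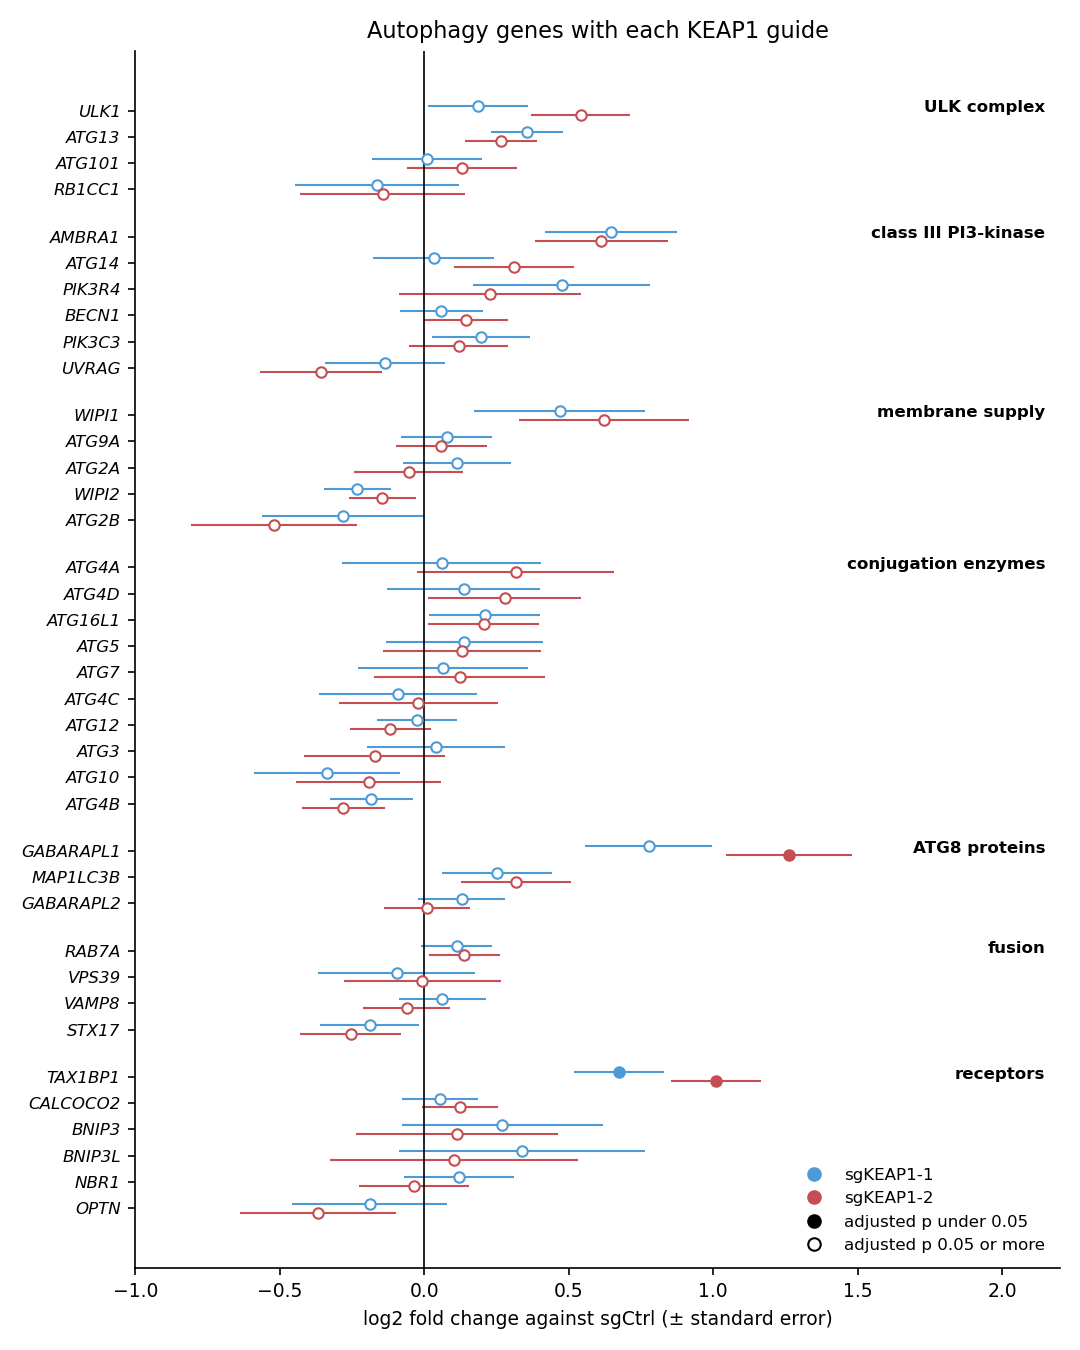
Log2 fold change against sgCtrl (horizontal axis, ± SE) of the 38 genes tested, by role and for each KEAP1 guide, where filled points have an adjusted p under 0.05. TAX1BP1 is filled for both guides (0.67 and 1.01), GABARAPL1 for sgKEAP1-2 only (1.26), and the other points are open.

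Of the 36 genes without a call over both guides, 20 had a 95% interval within 1.5-fold and 16 did not. The data thus limit the change for most but not all of them, and the 16 include ATG4A, ATG7 and ATG10 of low level as well as BNIP3, BNIP3L, ULK1 and WIPI1. With sgKEAP1-1 alone 18 of 37 uncalled genes were bounded in this way, and with sgKEAP1-2 alone 13 of 36. These intervals were not adjusted for the number of genes.

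The guides were also compared with each other. No gene of the 38 differed between sgKEAP1-2 and sgKEAP1-1 at an adjusted p under 0.05 with edgeR, against 0.0181% of all features. DESeq2 also called 0 of the 38. At an unadjusted p under 0.05 there were 2 of 38 genes, both higher with sgKEAP1-2, against 5.08% of all features in either direction. They were GABARAPL1, with a log2 difference of 0.48 ± 0.21 (95% interval 0.04 to 0.93, adjusted p = 0.96), and TAX1BP1, with 0.34 ± 0.15 (95% interval 0.01 to 0.67, adjusted p = 0.968). Of the 38 genes, 19 had an interval within 1.5-fold for this difference. Without the libraries numbered 2, 0 of 38 were called with edgeR and 2 had an unadjusted p under 0.05. These were ULK1 (log2 difference 0.53, adjusted p = 0.922) and TAX1BP1 (0.34, adjusted p = 0.922), while GABARAPL1 (0.52, adjusted p = 0.922) no longer passed. The share of all features at that unadjusted threshold is not given for this fit.

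BNIP3 and BNIP3L, the receptors for mitochondria that are known targets of hypoxia-inducible factors, varied most among replicates, with within-group SDs of 0.50 and 0.59 on the log2 scale beside a median of 0.26 for the 38 genes and 0.25 for all features. BNIP3, second in level of the 39 genes, was at 140.7, 305.6 and 150.6 CPM in sgCtrl, at 166.4, 322.4 and 228.8 CPM with sgKEAP1-1, and at 161.9, 267.8 and 213.7 CPM with sgKEAP1-2. BNIP3L was at 68.6, 148.0 and 54.7 CPM, at 75.3, 171.0 and 94.4 CPM, and at 80.0, 121.9 and 87.2 CPM in the same order. Library 2 was the highest for both genes in every group, and the groups overlapped. Their log2 fold changes over both guides were 0.19 ± 0.29 for BNIP3 (adjusted p = 0.782, edgeR) and 0.23 ± 0.36 for BNIP3L (adjusted p = 0.798). They were, without the libraries numbered 2, 0.41 ± 0.16 (adjusted p = 0.146) and 0.45 ± 0.16 (adjusted p = 0.0973), so the values were larger and still without a call. The 3' end of BNIP3L overlaps PNMA2 on the opposite strand.

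In all, 11 of the 38 autophagy genes were highest in library 2 of every group, against the 12.2% of all features, including BNIP3, BNIP3L, OPTN, RB1CC1, WIPI1 and TAX1BP1. The log2 level of BNIP3L in library 2 exceeded the mean of libraries 1 and 3 by 1.27 in sgCtrl, 1.02 with sgKEAP1-1 and 0.54 with sgKEAP1-2, and that of BNIP3 by 1.07, 0.72 and 0.52. For the hypoxia-inducible list the median of this difference, averaged over groups, was 1.12, with CA9 (carbonic anhydrase IX) at 2.25, VEGFA at 1.09 and LDHA at 0.35. The median of the 38 autophagy genes was 0.14 and that of all features -0.0013. This comparison was chosen after the values were seen and carries no test. Its part in the results was not tested.

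**Figure D4:**
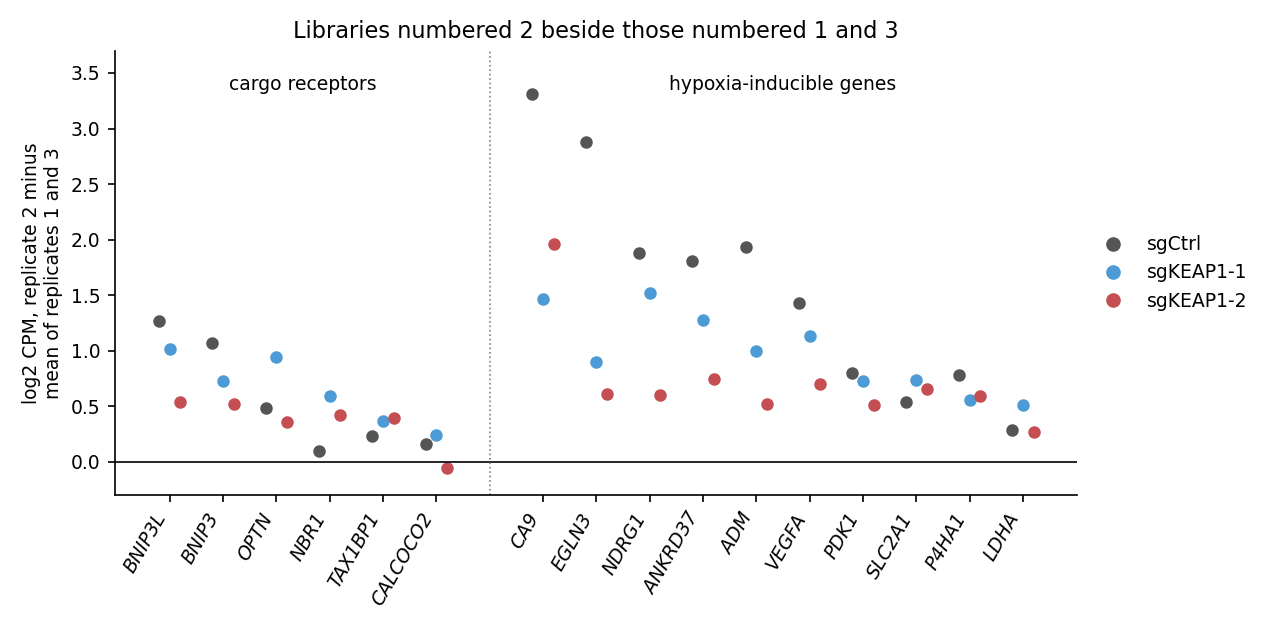
Log2 CPM in library 2 minus the mean of libraries 1 and 3 (vertical axis) in each group, for the 6 cargo receptors and 10 hypoxia-inducible genes. BNIP3L spans 0.54 to 1.27 and BNIP3 0.52 to 1.07, while CALCOCO2 lies between -0.06 and 0.24.

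Between knockout and control the hypoxia-inducible list had 1 call of 10 genes with each guide, against 2.80% and 5.96% of all features higher. The called gene was SLC2A1 (GLUT1, the glucose transporter), which rose by 1.20 ± 0.28 with sgKEAP1-1 (adjusted p = 0.0407, edgeR) and 1.18 ± 0.28 with sgKEAP1-2 (adjusted p = 0.023). SLC2A1 was at 232, 321 and 209 CPM in sgCtrl, at 533, 792 and 422 CPM with sgKEAP1-1, and at 558, 755 and 410 CPM with sgKEAP1-2. The list had 0 calls with either guide without sgCtrl 1 or sgCtrl 3. With sgKEAP1-1 it also had 0 without sgKEAP1-1 1, sgKEAP1-1 2 or sgKEAP1-2 1, and with sgKEAP1-2 it had 0 without sgKEAP1-2 1 or sgKEAP1-2 2. Without sgCtrl 2 there were 2 and 3 calls. When all 3 libraries numbered 2 were left out there were 3 calls with each guide, all higher, against 2.48% and 4.93% of features higher. They were SLC2A1 (log2 fold changes 1.11 and 1.14), EGLN3 (2.67 and 3.15) and ADM (1.19 and 1.61). In the fit of all 9 libraries EGLN3 was at 1.33 and 1.61 and ADM at 0.66 and 0.82, without a call. In the fit of all 9 libraries the median over the list, on the log2 scale, was 0.04 for sgKEAP1-1 and -0.10 for sgKEAP1-2. Without the libraries numbered 2 the median lay between ANKRD37 (0.09) and PDK1 (0.25) for sgKEAP1-1. For sgKEAP1-2 it then lay between CA9 (0.07) and NDRG1 (0.20), so its sign turned.

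Further genes of the pathway were read from a list of 48 that covers upstream kinases, further membrane and tethering proteins and organelle receptors. Of these, 43 were in the table and 42 were tested. With sgKEAP1-1, 0 of 42 passed with edgeR and 4 had an unadjusted p under 0.05, against 15.0% of all features in either direction. With sgKEAP1-2, 1 was higher and 1 was lower, against 5.96% and 4.85% of all features, and 7 had an unadjusted p under 0.05, against 23.3% in either direction. The same 2 passed over both guides, against 5.51% higher and 4.13% lower, and 10 had an unadjusted p under 0.05, against 22.4%. SH3GLB1 (endophilin B1, which binds UVRAG and curves membranes) was at 66.5, 91.5 and 77.0 CPM in sgCtrl and at 118, 120 and 125 CPM with sgKEAP1-2, a rise of 0.63 ± 0.14 on the log2 scale (adjusted p = 0.00893). PRKAB2, a regulatory subunit of the AMP-activated kinase, was at 108, 121 and 102 CPM in sgCtrl and at 64.3, 84.4 and 70.0 CPM with sgKEAP1-2, and its log2 fold change was -0.59 ± 0.15 (adjusted p = 0.0228). In both genes the sgCtrl and sgKEAP1-2 libraries did not overlap, and how many of all features separate in this way was not counted. With the libraries numbered 2 left out, the list had 0, 2 and 2 calls in the 3 comparisons, against 2.48%, 4.93% and 4.56% of all features higher. The share of features lower is not given for these fits. SH3GLB1 was then at 0.77 (adjusted p = 0.00587, edgeR) and PRKAB2 at -0.63 (adjusted p = 0.0224) with sgKEAP1-2. Without sgCtrl 1 neither comparison kept a call on this list, and without sgCtrl 3 the comparison over both guides kept 0. Without sgKEAP1-2 1 each comparison had 1 call, and without sgKEAP1-2 3 the comparison with sgKEAP1-2 had 4. With sgKEAP1-1 there was 1 call without sgCtrl 2. Over the 42 genes the median on the log2 scale was 0.03 for sgKEAP1-1 and 0.10 for sgKEAP1-2.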

How the data were processed

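RNA from 9 HepG2 libraries was measured with a 3' mRNA-seq kit (QuantSeq). Per the labels and the study's methods, the authors trimmed reads with cutadapt 1.16, aligned them with STAR 2.7.5b, counted them with featureCounts 1.6.3 and analysed them with limma 3.40.6. The submitters' notes name hg38 and the study's supplement GRCh37, and the annotation and strand setting are not given in the sources used here. The deposited values are raw counts per Entrez gene. A total of 1052 features without an Entrez number (1.26 to 1.42% of the counts of a library) were left out of library sizes and tests. Columns were matched to samples by title, and no column of another sample was present.

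Counts were filtered with filterByExpr, which left 11064 features, scaled by TMM and tested with edgeR 4.0.16 (R 4.3.3) by the robust quasi-likelihood test, two-sided, with all 9 libraries in 1 fit of 3 groups, and with 6 knockout against 3 control libraries in another. P-values were adjusted by Benjamini-Hochberg over all features, with a threshold of 0.05. Since nothing says that libraries of a group came from separate cultures, p-values measure only the spread between these libraries, which may be technical. Same-group libraries differed by more than sampling noise (chi-square per degree of freedom 4.63 to 24.1). The script was tested on simulated data. Log2 CPM used a prior count of 2.

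Values are given per library for each of the 41 genes past the threshold in any comparison, for each with an unadjusted p under 0.05 over both guides and for the 3 most abundant, and the others by range. The genes and lists were chosen with earlier results of these data known. Alternatives were DESeq2 1.42.0, limma-voom 3.58.1, other scalings and filters, the compared groups alone, a replicate block, each library left out, and, added after seeing the data, the libraries numbered 2 left out and the unnumbered features kept. Overlap of 3' ends was read over the last 500 bases in GENCODE v44 lifted to GRCh37, and promoters came from RefSeq.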

Additional observations from a re-analysis of the deposited data

How the results depend on the processing

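Over 336 alternative values, 292 stayed on the same side of the threshold or within 1.5 times a count, 39 counts moved further, 5 calls were lost and 0 changed direction. Lost calls and direction were followed only for TAX1BP1, GABARAPL1 and SQSTM1. The other values were numbers of calls, which hold no direction, so calls gained by other genes enter only through them. The number of autophagy genes called was 1 with sgKEAP1-1, 2 with sgKEAP1-2 and 2 over both guides. With sgKEAP1-1 it was 2 with DESeq2's Wald test and ranged from 0 to 2 when single libraries were left out (0 without sgCtrl 1, sgCtrl 3, sgKEAP1-1 1 or sgKEAP1-1 2, and 2 without sgKEAP1-1 3 or sgKEAP1-2 3), with sgKEAP1-2 from 2 to 3 (3 without sgKEAP1-1 2 or sgKEAP1-2 3), and over both guides from 1 to 3 (1 without sgCtrl 3, and 3 without sgKEAP1-1 3 or sgKEAP1-2 1). The main fits did not use the library number. Deviations of same-numbered libraries correlated unevenly, from -0.03 to 0.66 (mean 0.32, 9 pairs), beside a mean of -0.16 for 18 pairs with different numbers. The pairs numbered 2 correlated from 0.47 to 0.66. The libraries thus share structure by number in part, which the p-values of the main fits leave out. Of the 9 libraries, 7 correlated best with a library of their own number, and sgKEAP1-1 1 and sgKEAP1-2 3 did not. The deposited names share a prefix within a number, and its meaning was not stated. With a replicate block the counts were 2, 4 and 4 of 38, all higher, against 5.11%, 9.11% and 7.66% of all features higher (3.72%, 8.57% and 6.89% lower), adding GABARAPL1 (adjusted p = 0.0114) with sgKEAP1-1, ULK1 (0.0103) and WIPI1 (0.00737) with sgKEAP1-2, and AMBRA1 (0.0381) and WIPI1 (0.016) over both guides, all by edgeR. With the block the list of other autophagy genes had 3, 6 and 4 calls, of which 1 was lower in each (PRKAB2), and the hypoxia-inducible list had 5 with sgKEAP1-2, 3 higher and 2 lower (VEGFA at -0.60 and P4HA1 at -0.40), and 3 over both guides, all higher. Without the libraries numbered 2 the autophagy counts were again 1, 2 and 2, and the hypoxia-inducible list had 3 calls in each. The cause of these shifts was not tested. With 3 libraries a group, the 95% interval over both guides reached beyond 1.5-fold for 16 of the 36 uncalled genes, and ATG4A, the least abundant gene tested, had a mean of 4.75 CPM.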
